A study of Mus musculus with 9 samples.

Results

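The mitochondrial ribosome is the translation machine inside mitochondria. All of its proteins are encoded by nuclear genes, made in the cytosol and imported, and they assemble with mitochondrial ribosomal RNA into a small and a large subunit that together translate the respiratory chain subunits encoded in mitochondrial DNA. In lymphocytes this translation supplies the oxidative phosphorylation that dividing cells draw on after activation. The nuclear genes carry the symbols Mrps (named for the small subunit) and Mrpl (named for the large subunit), and they were described here in splenic follicular B cells of mice whose B cell receptor is built on different heavy chain isotypes.

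The members were all genes with an Mrpl or Mrps symbol that had a probe set of their own on the array, pseudogene symbols left out, each read from its brightest probe set. This gave 71 of the 22180 genes with a value. A further 7 symbols, Mrpl30, Mrpl33, Mrpl41, Mrpl43, Mrpl44, Mrpl53 and Mrps6, lay only on probe sets shared with another gene and were given no value. The tests took in the genes brighter than the median of the array on 3 or more of the 9 arrays, which left 12170 genes and 69 of the members.

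Biotin-labelled cDNA from sorted spleen B cells was hybridised to 9 single-colour arrays. There were 3 arrays of each genotype, labelled Igh[epsilon]/[epsilon] VJk5 (ε/ε), Igh[gamma]1/[gamma]1 VJk5 (γ1/γ1) and Ighwt VJk5 (wild-type). The labels name the ε and γ1 alleles of Igh after the heavy chain constant regions of IgE and IgG1. Every group, the wild-type included, carries the label VJk5, which the labels do not explain. The mice were 6 to 12 weeks old and kept in a specific-pathogen-free facility, and their repertoire is described as polyclonal. The replicates are called independent, but no label ties an array to one mouse, and the p-values therefore speak only of how far these RNA samples lie apart. The sorted cells are a bulk sample, in which fewer cells of a type and less RNA per cell cannot be told apart.

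Of the 9 B cell markers listed, 8 had a value and all 8 lay above the percentile 75 of every array, while 4 of 10 T and NK cell markers (Cd3e, Cd3d, Cd3g and Cd4) and 5 of 7 granulocyte markers (S100a8, Ly6g, Elane, Ngp and Camp) lay at or below the median on all 9 arrays. Of the others, Nkg7 of NK cells and Mpo of granulocytes lay above the median on all 9 arrays. Of 12 macrophage and dendritic cell markers, 0 lay above that percentile on all arrays, but their mean log2 level ran from 4.22 to 6.60 on the ε/ε arrays against 3.76 to 3.94 in γ1/γ1 and 3.75 to 3.78 in wild-type. Markers of marginal zone B cells had mean log2 levels of 5.96 to 6.10 in ε/ε, 5.56 to 5.76 in γ1/γ1 and 4.86 to 5.11 in wild-type. Of the 7 tested, 4 (Il9r, Ackr3, Myof and Dtx1) rose in ε/ε against wild-type at a limma adjusted p under 0.05, against 2.33% of all genes. The others tested did not pass, and the lowest stood at -0.17. These markers were listed with earlier results of these data known, so the count is not independent evidence of marginal zone cells. S1pr3, also listed, lay at or below the median on all 9 arrays and was not tested. Xist read 5.25 on ε/ε array 1 and 4.53 on γ1/γ1 array 1 and at least 10.37 on the other 7 arrays. The part of any of these in the differences given here was not tested.

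Against wild-type, the mitochondrial ribosomal protein genes as a group stood slightly lower in ε/ε cells, and 1 of them, Mrpl27, fell past the threshold. The median difference over the 69 members tested was -0.20 log2, with quartiles at -0.33 and 0.03, against a median of -0.01 over all genes tested. With a stricter filter at percentile 75, which keeps brighter genes, the median was -0.25 over 51 members and -0.11 over all 6058 genes. The difference was below 0 for 46 of the 69 members, or 66.7%, against 51.7% of all genes. At a limma adjusted p under 0.05, 0 members were higher and 1 was lower (1.45%), where 2.33% of all genes were called higher and 4.02% lower. The deposited values gave 772 called genes, 283 higher and 489 lower. Quantile normalization gave 709, with 410 higher and 299 lower, and centring on the array medians gave 710, with 324 higher and 386 lower, while the members' median stayed at -0.11 and -0.16 under these scalings. At an unadjusted p under 0.05, 2 members were higher and 10 lower, which is 2.9% and 14.5% beside 10.4% and 14.4% of all genes. At this looser threshold the share of members on the lower side is near the background, and the share on the higher side is below it.

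**Figure D1:**
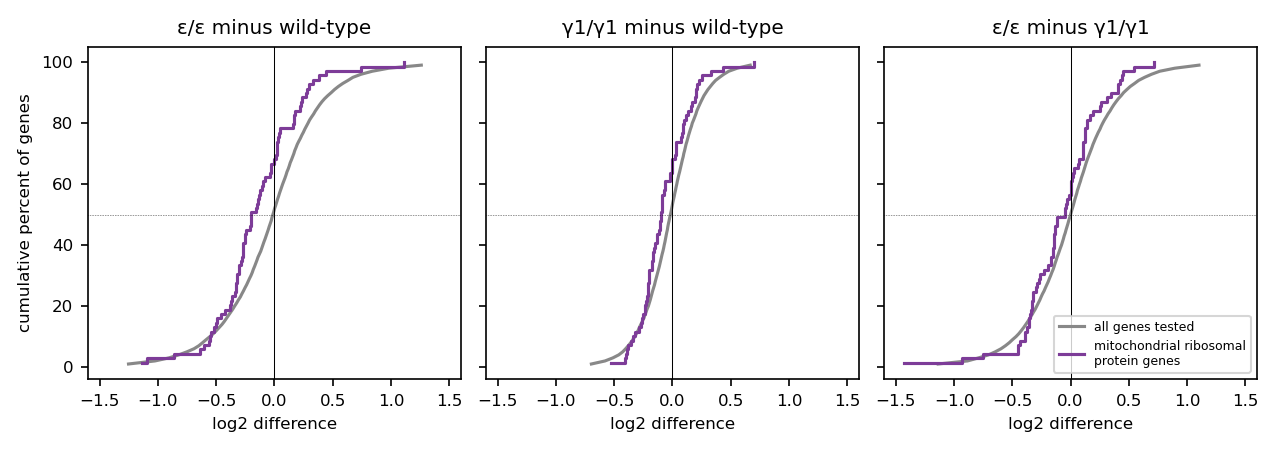
Cumulative percent of genes (vertical axis) by log2 difference between genotypes (horizontal axis) for the 69 mitochondrial ribosomal protein genes (purple steps) and all 12170 genes tested (grey). In ε/ε against wild-type the purple steps cross the 50% line at -0.20 and the grey line at -0.01, and the lower tails of both lie together.

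The size of these shifts set against the precision gives the limits on any change. For 54 of the 69 members (78.3%, against 78.5% of all genes) the 95% interval of the difference between ε/ε and wild-type lay within a 2-fold change either way. The estimate itself went past 2-fold for 3 members, Mrpl27 and Mrpl32 downward and Mrpl10 upward. Without ε/ε array 1, the median of the members was -0.10 and 44 of 69 were below 0. That array had the highest macrophage and dendritic cell markers and was also the ε/ε array of low Xist.

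Mrpl27 is the mitochondrial counterpart of bacterial L27, a large subunit protein that reaches toward the peptidyl transferase centre. It read 3.24, 3.46 and 3.69 (log2) on the ε/ε arrays, 4.88, 4.25 and 4.05 on the γ1/γ1 arrays, and 4.14, 5.08 and 4.58 on the wild-type arrays. All 3 ε/ε values lay below every value of the other genotypes, and they lay around or below the array medians (3.53 to 3.69), the level used as the filter. The means were 3.47 ± 0.23 for ε/ε, 4.39 ± 0.44 for γ1/γ1 and 4.60 ± 0.47 for wild-type (SD, n = 3). The gene fell by 1.14 log2 in ε/ε against wild-type (SE 0.27, 95% interval -1.74 to -0.53, limma adjusted p = 0.0376), a size that rests on ε/ε values of which 1 lay above its array median, and it is given without a fold. Against γ1/γ1 the difference was -0.93 (limma adjusted p = 0.101), and between γ1/γ1 and wild-type it was -0.21 (95% interval -0.82 to 0.40, limma adjusted p = 0.907).

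The call on Mrpl27 rested on single arrays. Over 17 alternative settings the difference stayed between -1.37 and -0.90 and the limma adjusted p ran from 0.0289 to 0.142. The adjusted p was 0.1 without ε/ε array 1, 0.0746 without ε/ε array 2, 0.0522 without ε/ε array 3, 0.0587 without γ1/γ1 array 2, 0.142 without wild-type array 2 and 0.109 without wild-type array 3.

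Mrpl32, the counterpart of bacterial L32, is a large subunit protein that is trimmed by the mitochondrial m-AAA protease before it enters the ribosome. It read 3.93, 4.97 and 4.03 on the ε/ε arrays, 6.05, 6.05 and 5.12 on the γ1/γ1 arrays, and 5.27, 5.46 and 5.49 on the wild-type arrays. Every ε/ε value lay below every other value, and ε/ε array 2 stood closest to the other genotypes. The means were 4.31 ± 0.58, 5.74 ± 0.54 and 5.41 ± 0.12 (SD, n = 3). In ε/ε against γ1/γ1 the gene fell by 1.43 log2 (SE 0.31, 95% interval -2.12 to -0.73, 2.69-fold lower, limma adjusted p = 0.0437). Against wild-type the difference was -1.09 (SE 0.31, limma adjusted p = 0.0644), and between γ1/γ1 and wild-type it was 0.33 (limma adjusted p = 0.86).

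The call between ε/ε and γ1/γ1 also depended on single arrays. Over 18 alternative settings the difference ran from -1.76 to -1.08 and the limma adjusted p from 0.0159 to 0.225. The adjusted p was 0.11 without ε/ε array 1, 0.101 without ε/ε array 3, 0.132 without γ1/γ1 array 1, 0.118 without γ1/γ1 array 2, and 0.0701, 0.0722 and 0.0765 without wild-type arrays 1, 2 and 3. The difference of Mrpl32 from wild-type, in turn, passed in limma without ε/ε array 2 (-1.43, adjusted p = 0.0233) and without γ1/γ1 array 3 (adjusted p = 0.0476), and also with a stricter filter at percentile 75 (adjusted p = 0.0442).

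**Figure D2:**
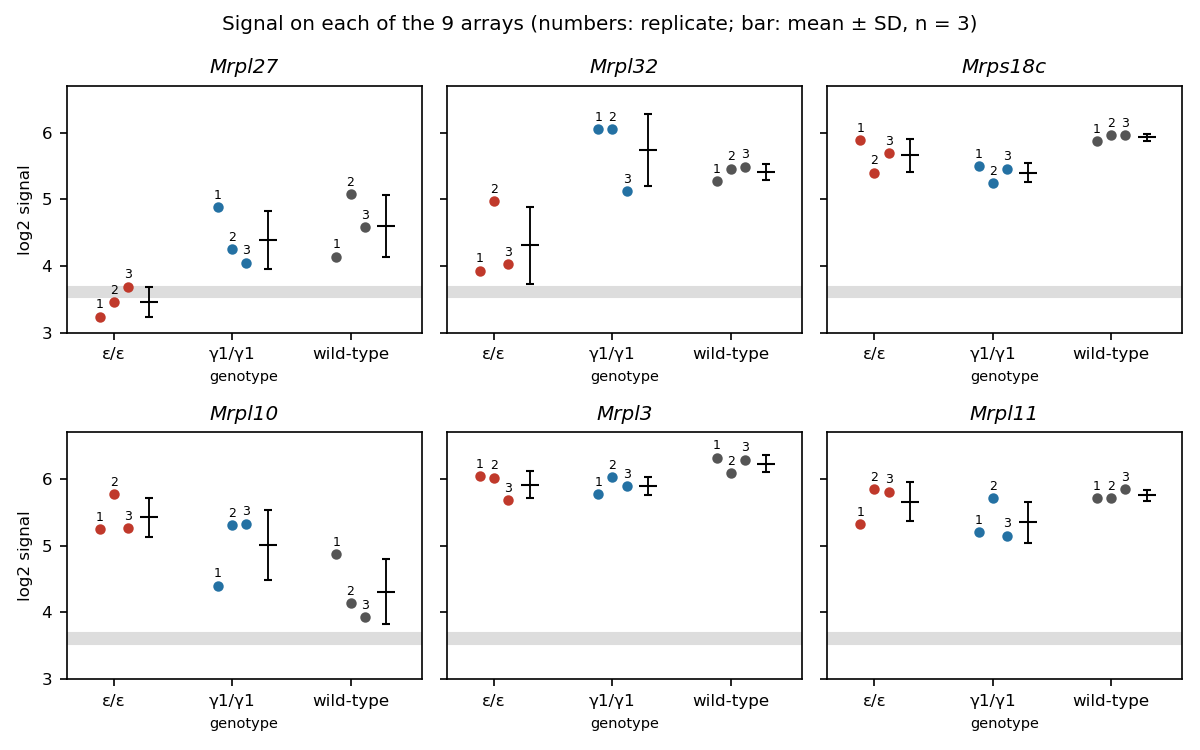
Log2 level (vertical axis) on each of the 9 arrays for 6 members, by genotype (horizontal axis), with small numbers giving the replicate, black bars the mean ± SD (n = 3) and the grey band the range of the array medians (3.53 to 3.69). Mrpl27 in ε/ε sits at the band, Mrpl32 in ε/ε lies between 3.93 and 4.97 below the other genotypes, and Mrpl10 in ε/ε lies above wild-type.

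The member that stood highest in ε/ε relative to wild-type was Mrpl10, a protein of the flexible stalk of the large subunit on which translation factors land. It read 5.25, 5.77 and 5.26 in ε/ε, 4.40, 5.31 and 5.33 in γ1/γ1 and 4.87, 4.14 and 3.93 in wild-type. The ε/ε and wild-type values did not overlap, and the γ1/γ1 values spread across both. The difference was 1.11 between ε/ε and wild-type (SE 0.31, 95% interval 0.43 to 1.79, limma adjusted p = 0.0594) and 0.70 between γ1/γ1 and wild-type (limma adjusted p = 0.722). The first passed in limma without γ1/γ1 array 1 (adjusted p = 0.0374) and without wild-type array 1 (1.39, adjusted p = 0.0405), and also with the filter at percentile 75 (adjusted p = 0.04). A second Mrpl10 probe set gave 0.27 and 0.06 for the same differences.

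Counted by the arrays themselves, 13 members had all ε/ε values below all wild-type values and 1, Mrpl10, had them all above (18.8% and 1.45%, against 16.6% and 11.8% of all genes). The 3 nearest to the threshold after Mrpl10 and Mrpl32 are named here after their values were seen. Mrpl18, the counterpart of bacterial L18, read 5.40, 5.93 and 5.37 in ε/ε and 6.19, 6.13 and 6.02 in wild-type, a difference of -0.54 (limma adjusted p = 0.091). Mrpl50, which has no bacterial counterpart, read 4.95, 5.33 and 5.88 in ε/ε and 6.51, 6.15 and 6.06 in wild-type, a difference of -0.86 (limma adjusted p = 0.0942). Mrpl36, a small zinc-binding protein of the large subunit, read 6.32, 5.53 and 6.39 in ε/ε, 5.46, 5.47 and 5.17 in γ1/γ1 and 5.53, 5.46 and 5.02 in wild-type, a difference of 0.74 from wild-type (limma adjusted p = 0.089). Its other probe set gave 0.19.

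For Mrpl18 and Mrpl36, but not for Mrpl50, ε/ε array 2 stood apart from the other ε/ε arrays. Without it, 5 members passed as lower than wild-type (Mrpl18, Mrpl32, Mrpl39, Mrps16 and Mrps17) and 1 as higher (Mrpl36), while Mrpl27 did not pass; of all genes 3.95% were then called lower and 2.23% higher. Without γ1/γ1 array 3, 2 members passed as lower, Mrpl27 and Mrpl32, with 3.31% of all genes.

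Sorted by the subunit a protein sits in, the 25 small subunit genes tested had a median of -0.15 in ε/ε against wild-type, with 20 below 0, and the 44 large subunit genes one of -0.20, with 26 below 0. Of all genes 51.7% were below 0. The small subunit genes lay in a narrow range, from -0.55 to 0.22, and the large subunit genes ran from -1.14 to 1.11. Split further by ancestry, the 15 small subunit proteins that bacteria share had a median of -0.27 with 13 below 0, and the 10 that are particular to mitochondria had -0.14 with 7 below 0. In the large subunit the 27 shared with bacteria had a median of -0.20 with 15 below 0, and the 17 particular to mitochondria had -0.25 with 11 below 0. Without ε/ε array 1 the medians in the same order were -0.19, -0.03, 0.02 and -0.21. Differences between these classes were not tested.

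**Figure D3:**
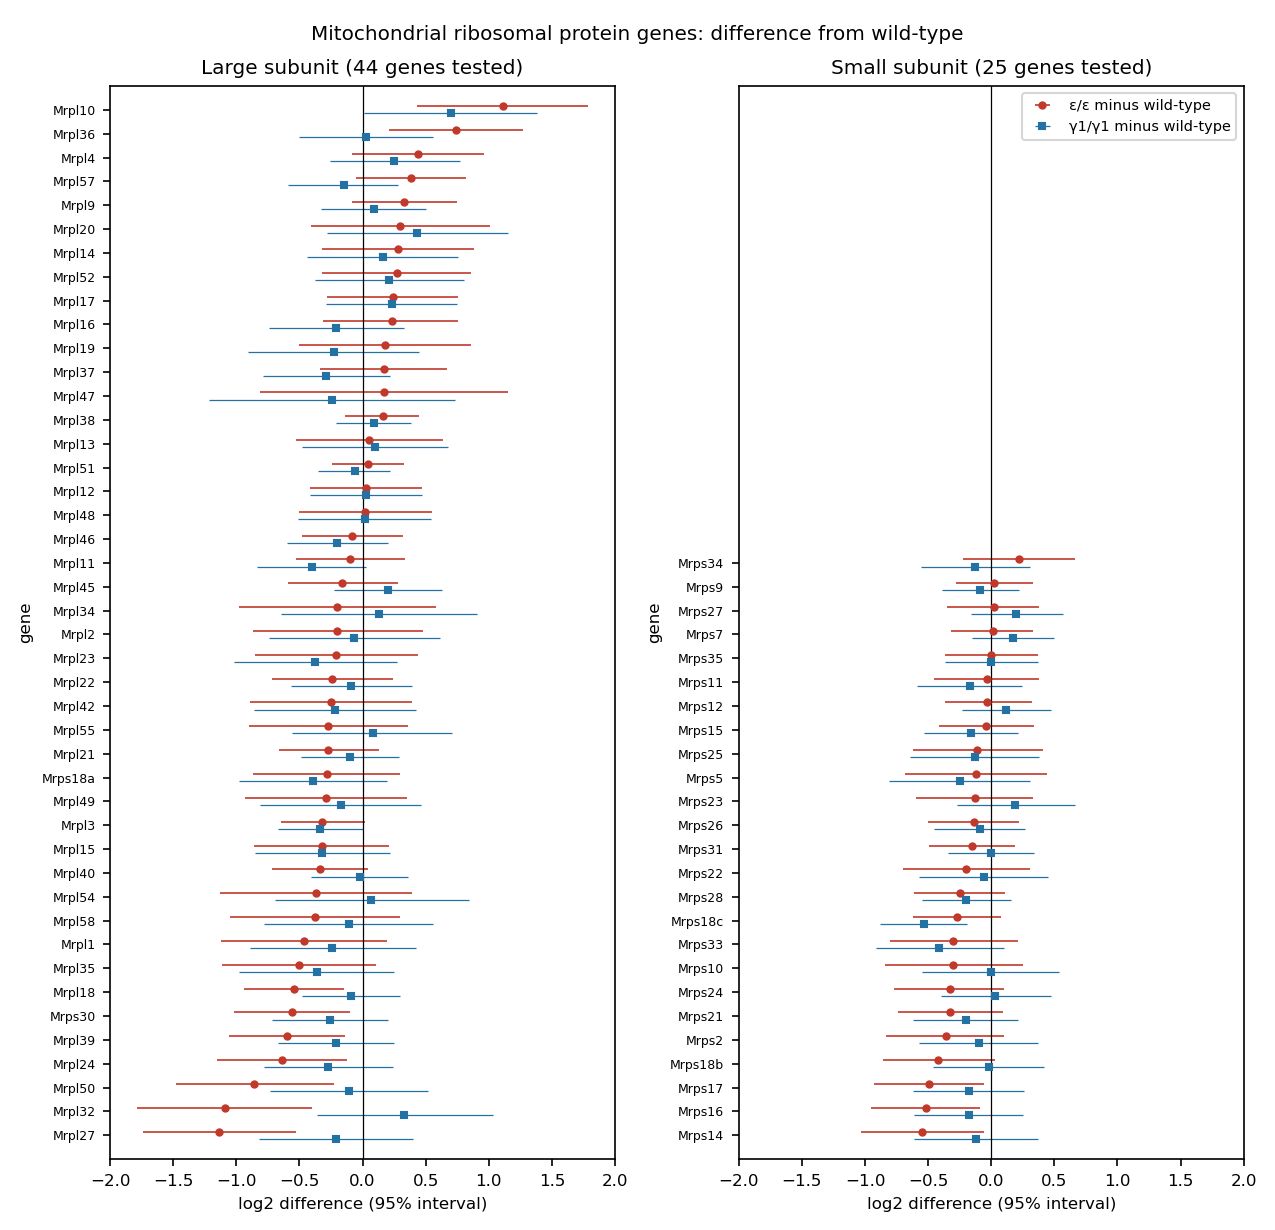
Log2 difference from wild-type (horizontal axis) with its 95% interval for each of the 69 members tested (vertical axis), ε/ε in red circles and γ1/γ1 in blue squares, with the 44 large subunit genes on the left and the 25 small subunit genes on the right. In ε/ε the large subunit genes run from Mrpl27 at -1.14 to Mrpl10 at 1.11, and the small subunit genes stay between -0.55 and 0.22.

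For some symbols the name and the place of the protein differ. Mrps30 and Mrps18a are named for the small subunit and sit in the large one. Mrps30 read 4.26, 4.86 and 5.03 in ε/ε, 5.17, 4.85 and 5.03 in γ1/γ1 and 5.36, 5.05 and 5.42 in wild-type, a difference of -0.56 between ε/ε and wild-type (limma adjusted p = 0.134). The ε/ε values lay below the wild-type values and overlapped those of γ1/γ1. Mrps18a read 5.76, 5.99 and 5.45 in ε/ε, 4.97, 6.08 and 5.83 in γ1/γ1 and 6.01, 5.90 and 6.15 in wild-type, with all groups overlapping and a difference of -0.28 between ε/ε and wild-type (limma adjusted p = 0.542).

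Mrps36, now known as a subunit of the 2-oxoglutarate dehydrogenase complex rather than of the ribosome, was 1 of the 2 members left out of the tests. It read 3.07, 3.43 and 3.44 in ε/ε, 3.84, 3.49 and 3.42 in γ1/γ1 and 3.45, 3.46 and 3.44 in wild-type. The other, Mrpl28 of the large subunit, read 3.63, 3.96 and 3.31 in ε/ε, 3.03, 3.43 and 2.97 in γ1/γ1 and 3.14, 2.81 and 3.14 in wild-type. Each lay above the array median on 1 array. Nearest inside the filter were Mrpl27 and Mrpl48, both of the large subunit, each above the array median on 7 arrays. Mrpl48 read 4.35, 3.91 and 3.40 in ε/ε, 3.83, 3.91 and 3.91 in γ1/γ1 and 3.91, 4.14 and 3.54 in wild-type, with all groups overlapping.

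In γ1/γ1 cells no member passed against wild-type at a limma adjusted p under 0.05, a comparison in which 0.0247% of all genes were called higher and 0.0164% lower. At an unadjusted p under 0.05, 1 member was higher and 2 were lower (3.03% and 3.79% of all genes). The difference was below 0 for 46 of the 69 members, or 66.7%, against 53.4% of all genes. The median difference was -0.10, against -0.02 over all genes, and the members ran from -0.53 to 0.70, with none past 2-fold. The 95% interval lay within 2-fold for 64 of the 69 members (92.8%, against 90.6% of all genes). In 5 members, Mrps18c, Mrpl3, Mrpl24, Mrps17 and Mrpl42, all γ1/γ1 values lay below all wild-type values (7.25%, against 7.71% of all genes), and in 0 they lay above (4.68% of all genes).

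The member with the smallest p in this comparison was Mrps18c, one of the paralogs of bacterial S18, with its place in the small subunit. It read 5.50, 5.24 and 5.46 in γ1/γ1, 5.87, 5.96 and 5.96 in wild-type and 5.89, 5.40 and 5.69 in ε/ε. The γ1/γ1 values lay below all wild-type values and the ε/ε values spanned the gap. The difference between γ1/γ1 and wild-type was -0.53 (SE 0.16, 95% interval -0.88 to -0.19, limma adjusted p = 0.524).

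The next in rank beside Mrpl10 were Mrpl3 and Mrpl11. Mrpl3, the counterpart of L3 of the large subunit core, read 5.77, 6.03 and 5.89 in γ1/γ1, 6.32, 6.09 and 6.29 in wild-type and 6.04, 6.02 and 5.68 in ε/ε. Both mutants lay below wild-type on every array, by -0.34 in γ1/γ1 (SE 0.15, limma adjusted p = 0.727) and -0.32 in ε/ε (limma adjusted p = 0.221), with the same wild-type arrays in both. Mrpl11, at the base of the stalk, read 5.20, 5.71 and 5.15 in γ1/γ1, 5.71, 5.71 and 5.85 in wild-type and 5.32, 5.85 and 5.81 in ε/ε. Its difference between γ1/γ1 and wild-type was -0.40 (SE 0.20, limma adjusted p = 0.733), and the groups met at 5.71.

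Between the mutants, 0 members were higher and 1 was lower in ε/ε than in γ1/γ1 at a limma adjusted p under 0.05, namely Mrpl32, where 1.02% of all genes were called higher and 1.64% lower. Over all genes the deposited values gave 124 higher and 200 lower, quantile normalization 203 and 177, and centring 151 and 126. At an unadjusted p under 0.05, 2 members were higher and 4 lower (9.07% and 10.8% of all genes). The median difference was -0.05 over the members and -0.00 over all genes, 39 of 69 members were below 0 (56.5%, against 50% of all genes), and the members' median was -0.01 and 0.01 under the other scalings. All ε/ε values lay below all γ1/γ1 values in 4 members, Mrpl27, Mrpl32, Mrps14 and Mrps18b, and above them in 1, Mrpl36 (5.8% and 1.45%, against 11.3% and 9.86% of all genes). Mrpl36 differed by 0.72 (limma adjusted p = 0.137) and passed as higher in ε/ε without ε/ε array 2 (0.99, limma adjusted p = 0.0347). The 95% interval lay within 2-fold for 60 of the 69 members, or 87%, against 81.5% of all genes.

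The arrays of one genotype agreed less in ε/ε than in wild-type for these genes. The median SD within a genotype over the members was 0.32 for ε/ε, 0.24 for γ1/γ1 and 0.14 for wild-type, and 0.22, 0.20 and 0.17 over all genes tested. The genes of the cytosolic ribosome, which translates nuclear messages, had 0.17, 0.20 and 0.19. Centred on each gene's mean over 9 arrays, the median of the members was -0.16, 0.06 and -0.09 on the ε/ε arrays, -0.03, 0.16 and -0.05 on the γ1/γ1 arrays and 0.12, 0.10 and 0.04 on the wild-type arrays. ε/ε array 1 held the lowest value of 21 of the 69 members and ε/ε array 2 of 2.

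The macrophage and dendritic cell markers tested, 9 genes, had medians of 2.68, 0.45 and 0.06 on the ε/ε arrays and between -0.70 and -0.43 on the other 6. The array with the lowest median of the members, ε/ε array 1, had the highest median of these markers and was also the ε/ε array of low Xist (5.25). The array with the next highest markers, ε/ε array 2, had a members' median above 0. The part of the markers or of the Xist difference in the members' medians was not tested.

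**Figure D4:**
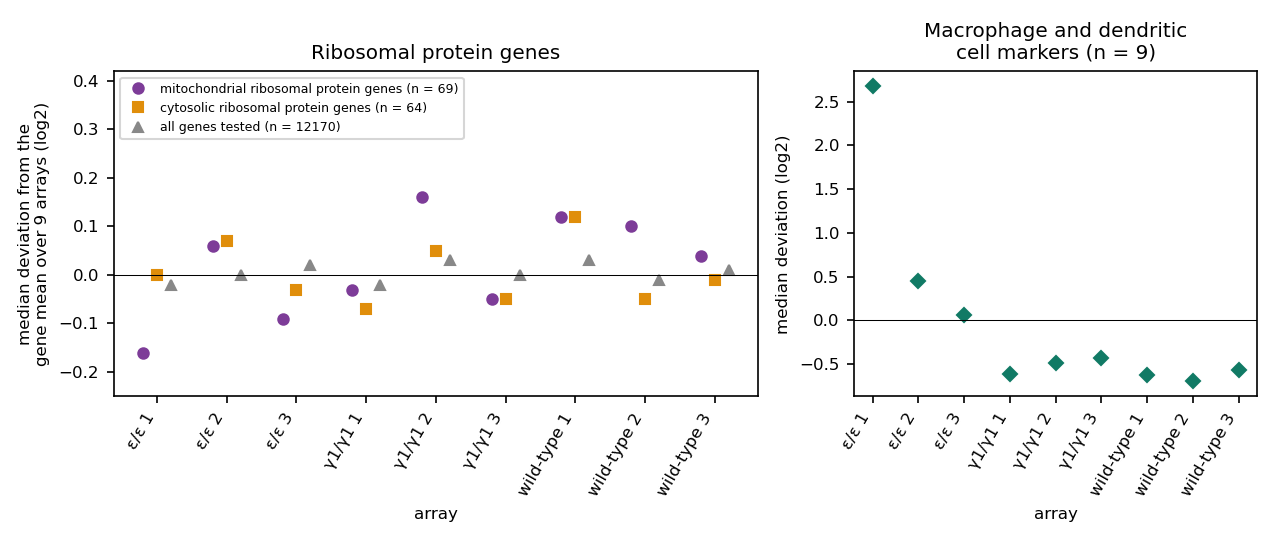
Left, the median deviation from each gene's mean over 9 arrays (log2, vertical axis) on each array (horizontal axis) for the mitochondrial ribosomal protein genes, the cytosolic ribosomal protein genes and all genes tested, offset sideways for legibility; right, the same for 9 macrophage and dendritic cell markers on a wider scale. The mitochondrial genes run from -0.16 on ε/ε array 1 to 0.16 on γ1/γ1 array 2, and the markers reach 2.68 on ε/ε array 1.

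Many deposited values repeat exactly between arrays. At least 2 arrays shared a value for 25 of the 71 probe sets used for the members (35.2%), the brightest of each gene. The share was 45.9% over all 41345 probe sets, a different set that takes in dimmer ones and those without a single symbol. The clearest case, chosen after its values were seen, is Mrps35 of the small subunit, which read 5.88 on all 6 γ1/γ1 and wild-type arrays and 6.12, 6.02 and 5.50 in ε/ε, and Mrps26 read 5.70 on 5 arrays. For such genes the spread within a genotype may not be a measured replicate error. The source of the repeated values was not tested. Of 9 members with more than 1 probe set, the probe sets pointed in opposite directions for 2 (Mrpl12 and Mrps16) between ε/ε and wild-type, for 4 between γ1/γ1 and wild-type and for 3 between the mutants. Mrpl27 and Mrpl32 have 1 probe set each.

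Some promoters of the members carry letters of sites known for nuclear regulators of mitochondrial genes and of growth, which the choice of the genes did not use. RefSeq promoter windows (GRCm38.p6, 250 bases before to 50 after an annotated start of the gene) were found for 62 of the 71 members, in 68 windows, and both strands were searched. A gene was counted once where any of its windows held the letters, and was compared with 17492 protein-coding genes and 65 cytosolic ribosomal protein genes. The site of nuclear respiratory factor NRF1, a CpG-rich palindrome-like stretch, was in 11 members (17.7%), against 7.17% of protein-coding genes and 7.69% of cytosolic ribosomal protein genes. CCGGAAG, the core bound by ETS proteins such as GABP (also called NRF-2), was in 23 members (37.1%), against 12.9% and 36.9%. AAGATGGC, the YY1 site, was in 12 members (19.4%), against 3.57% and 9.23%. The E-box CACGTG bound by Myc was in 5 members (8.06%), against 8.91% and 9.23%. Counted over windows, these letters were in 16.2%, 33.8%, 17.6% and 10.3% of the members' windows and in 6.38%, 11.6%, 3.05% and 7.84% of those of protein-coding genes. These shares were not tested, and the windows of one gene can overlap. The median number of CpG pairs in a window was 21 in the members and 13 in protein-coding genes. A match describes the letters only.

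The stretches before the start of both members that passed a test are shown because they carry different sets of these letters, in capitals (RefSeq, GRCm38.p6). Mrpl27 lies on the plus strand (chr11:94653541-94653769, 229 bases), with the ETS letters 34 to 28 bases before the start. For Mrpl27 this start is the first base of the gene over all its transcripts. It lies ahead of the start used for the counted window, so fewer than 250 bases are shown. Mrpl32 lies on the minus strand (chr13:14613038-14613287, 250 bases), with the NRF1 letters 87 to 78 bases and the YY1 letters, on the opposite strand, 242 to 235 bases before the start.
Mrpl27: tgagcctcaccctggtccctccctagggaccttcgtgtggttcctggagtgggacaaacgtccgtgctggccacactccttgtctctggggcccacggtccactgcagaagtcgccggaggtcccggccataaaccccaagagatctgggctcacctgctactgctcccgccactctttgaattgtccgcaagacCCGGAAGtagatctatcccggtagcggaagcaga
Mrpl32: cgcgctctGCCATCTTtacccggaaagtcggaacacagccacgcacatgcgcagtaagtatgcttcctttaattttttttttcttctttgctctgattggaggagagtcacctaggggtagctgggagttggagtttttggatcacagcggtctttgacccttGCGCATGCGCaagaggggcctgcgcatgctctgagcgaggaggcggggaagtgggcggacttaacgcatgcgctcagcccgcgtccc

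Other genes of the mitochondrial expression system were read from lists ordered by role. In ε/ε against wild-type, 0 of 3 other mitochondrial ribosome genes, 0 of 16 mitochondrial aminoacyl-tRNA synthetases, 0 of 10 translation factors, 0 of 18 ribosome assembly factors and 0 of 8 genes of membrane insertion and respiratory complex assembly passed in either direction. Of all genes 2.33% were called higher and 4.02% lower, so lists this short can hold none. The translation factors had a median of -0.36, with 9 of 10 below 0 against 51.7% of all genes. In γ1/γ1, set against the same wild-type arrays, their median was -0.17, with 10 of 10 below 0 against 53.4%. The closest of them to the threshold in ε/ε was the initiation factor Mtif2 at -0.65 (limma adjusted p = 0.0645). The assembly factors had a median of -0.07 in ε/ε and 0.03 in γ1/γ1. Among them the GTPase Noa1 stood at -0.83 in ε/ε (limma adjusted p = 0.0573) and -0.65 in γ1/γ1 (limma adjusted p = 0.649). The synthetases had a median of -0.17 in ε/ε, with the seryl-tRNA synthetase Sars2 at 0.49 (limma adjusted p = 0.129). Dap3, a GTP-binding protein of the small subunit that carries neither prefix, read 4.49, 4.73 and 4.97 in γ1/γ1, below every value of wild-type (5.22, 5.17 and 5.09) and of ε/ε (mean 5.10 ± 0.13, SD, n = 3). Its difference between γ1/γ1 and wild-type was -0.43 (limma adjusted p = 0.657). Coa3, which helps assemble cytochrome c oxidase, stood at 0.55 between ε/ε and wild-type (limma adjusted p = 0.248).

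Of 13 genes of mitochondrial transcription and RNA processing, 3 fell in ε/ε against wild-type and 0 rose (4.02% and 2.33% of all genes), with a median of -0.27. Tfam, which packages mitochondrial DNA and starts its transcription, read 4.57, 4.86 and 4.60 in ε/ε, 5.58, 5.65 and 5.34 in γ1/γ1 and 5.87, 5.41 and 5.35 in wild-type. All ε/ε values lay below all others, a fall by 0.87 log2 against wild-type (SE 0.17, limma adjusted p = 0.0201) and by 0.84 against γ1/γ1 (limma adjusted p = 0.0353). Trmt10c, a subunit of mitochondrial RNase P, read 5.35, 5.42 and 5.61 in ε/ε, 6.03, 5.94 and 5.61 in γ1/γ1 and 6.32, 6.50 and 6.14 in wild-type, and fell by 0.86 in ε/ε against wild-type (SE 0.16, limma adjusted p = 0.0156). Lrpprc, which stabilises mitochondrial messenger RNA, read 5.94, 6.21 and 6.32 in ε/ε, 6.53, 6.47 and 6.65 in γ1/γ1 and 6.81, 6.67 and 6.81 in wild-type, and fell by 0.61 (SE 0.14, limma adjusted p = 0.0336).

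The calls on these genes depended on single arrays and on the setting to different degrees. Against wild-type, Tfam did not pass without ε/ε array 1 or any 1 of the wild-type arrays (limma adjusted p up to 0.0601), with only the 6 arrays compared or with the 7 arrays of high Xist (up to 0.0659). Trmt10c did not pass without wild-type array 2 (0.0721). Lrpprc did not pass without ε/ε array 1 or 2, γ1/γ1 array 2 or any 1 of the wild-type arrays (limma adjusted p up to 0.113), nor after quantile normalization, with the 6 arrays, the 7 arrays or the replicate number as a block (up to 0.0823). Between the mutants, Tfam passed with single arrays left out only without ε/ε array 2 or wild-type array 1 (limma adjusted p up to 0.102 for the others), and did not pass after centring, with the 6 arrays, the 7 arrays or the replicate block (up to 0.167). Against wild-type the differences themselves stayed between -0.96 and -0.70 for Tfam, -0.95 and -0.76 for Trmt10c and -0.69 and -0.48 for Lrpprc.

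Among 10 regulators of nuclear genes for mitochondria, 1 rose in ε/ε against wild-type and 0 fell (2.33% and 4.02% of all genes), with a median of -0.26. The riser was Myc, the growth-promoting transcription factor, with 8.06, 8.06 and 8.09 in ε/ε, 7.74, 7.85 and 7.26 in γ1/γ1 and 7.41, 7.09 and 7.42 in wild-type, a rise of 0.76 (SE 0.18, limma adjusted p = 0.0332), which did not pass without any 1 of the ε/ε or wild-type arrays (adjusted p up to 0.133), with the replicate block or with the 7 arrays (up to 0.0809). Of 21 genes of protein import, 1 fell in ε/ε against wild-type, Timm8a1, a carrier of inner membrane proteins, at -0.90 (limma adjusted p = 0.0269). This difference was -0.17 when its 3 probe sets were averaged. It did not pass without ε/ε array 1 or 2 or any 1 of the wild-type arrays (limma adjusted p up to 0.0826). Nor did it pass with the replicate block, the 6 arrays or the 7 arrays. In γ1/γ1 Timm8a1 stood nearly as low against wild-type, at -0.82 (limma adjusted p = 0.401), with no overlap. Between the mutants it differed by -0.07. In γ1/γ1 against wild-type 0 genes of these mitochondrial lists passed (0.0247% of all genes were called higher and 0.0164% lower). Between the mutants Tfam was the one that passed, as lower in ε/ε (1.64% of all genes).

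Cytosolic ribosomal protein genes differed from wild-type in ε/ε by a median of -0.02 over 64 genes tested, with 1 higher and 1 lower (2.33% and 4.02% of all genes). Rpl37 fell by 0.83 (limma adjusted p = 0.039) and did not pass without any 1 of the ε/ε arrays, γ1/γ1 array 3 or either of wild-type arrays 2 and 3 (adjusted p as high as 0.15), with no filter, the 6 arrays, the 7 arrays or the replicate block (up to 0.0696). The higher gene, Rps15, entered the tests only through the 3 arrays on which it passed the filter, those of ε/ε (4.66, 4.50 and 4.30), and it lay below the array medians in wild-type (2.63, 2.64 and 3.02) and γ1/γ1 (2.71, 2.87 and 2.68), so the size of its difference is not given. The genes encoded in mitochondrial DNA, whose messages the mitochondrial ribosome reads, were not analysed here.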

How the data were processed

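The authors deposited 1 log2 signal per probe set and array for 41345 probe sets. The background correction, normalization and probe summary behind the deposited log2 values were not given in the sources used here. Only R 3.3.1 is named, per the submitters' processing notes. Values were used as deposited. Of the probe sets, 23521 were annotated with 1 symbol and used, 1814 carried several symbols and were left out, and each gene was read from the probe set brightest on average over 9 arrays. Genes above the array's percentile 50 on at least 3 arrays were fitted together with limma 3.58.1 (R 4.3.3, lmFit and eBayes, 1 mean per genotype, 6 residual degrees of freedom), with Benjamini-Hochberg adjustment over 12170 genes and a threshold of 0.05. The procedure was tested on simulated data. The precision is limited by 3 arrays a genotype, and 0 pairs of arrays were identical.

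Named with values on every array were members that passed, else the 4 of smallest p in a comparison, those nearest the filter by number of arrays, and Mrps18a, Mrps30 and Mrps36. Mrpl18, Mrpl36, Mrpl50, Mrps26 and Mrps35 were added after their values were seen, and Mrpl18, Mrpl50 and Mrps26 are not given for every array. From other lists, up to 3 that passed were named, else the 1 of smallest p, some of them by the difference alone. The members, gene lists and marker lists were chosen with earlier results of these data known. The alternatives were quantile normalization, centring on array medians, no filter, a filter at percentile 75, averaged probe sets, trended and robust variance, only the 6 arrays compared, a replicate block, the 7 arrays of high Xist, and each array left out. Promoter letters were counted on RefSeq windows.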

Additional observations from a re-analysis of the deposited data

How the results depend on the processing

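The calls on Mrpl27 and Mrpl32 kept their direction under every alternative run on them; directions of calls over all genes were not compared one by one. Members called higher in ε/ε than in wild-type numbered 0, and 1 with the filter at percentile 75 and 0 to 1 with single arrays left out. Members called lower numbered 1, and 0 with no filter, 0 with only the 6 arrays compared, 0 with the replicate block, 0 with the 7 arrays of high Xist and 0 to 5 with single arrays left out. With the filter at percentile 75 the 1 member called lower was Mrpl32, and Mrpl27 was not tested there. Between the mutants, members called lower in ε/ε numbered 1, and 0 with arrays centred on their medians, 0 with no filter, 0 with the 6 arrays and 0 with the 7 arrays, and 0 to 1 with single arrays left out; those called higher numbered 0 to 1. The median difference of the members was -0.10 between ε/ε and wild-type with the 7 arrays, -0.25 to -0.10 with single arrays left out, and -0.17 to 0.03, on both sides of 0, between the mutants. The cause of these changes was not tested. Over all genes, 772 calls between ε/ε and wild-type became 424 with the 6 arrays, 512 without wild-type array 1, 186 without array 2 and 210 without array 3. Deviations from the genotype means correlated at 0.0465, 0.156 and 0.0471 for same-numbered arrays of the mutants. Differently numbered arrays of the mutants gave -0.0733 to 0.0129. Pairs with a wild-type array gave -0.0905 to 0.0318 with the same number and -0.0489 to 0.0841 with different numbers. Each gene's deviations sum to 0 within a genotype, so the values for same and different numbers are tied to each other. Whether the replicate numbers pair the arrays was not tested. With the replicate block 668 genes were called between ε/ε and wild-type, and 0 in place of 5 between γ1/γ1 and wild-type. Between the mutants it gave 237 in place of 324. The calls between the mutants fell to 56 with the 6 arrays, 88 with the 7 and as low as 122 with single arrays left out (without γ1/γ1 array 3).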
